A study of Rattus norvegicus with 144 samples.

Results

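Blood RNA of rats given 1500 mg/kg acetaminophen was compared with that of rats given 150 mg/kg, 24 h after dosing, in 12 of the study's 72 rats and 24 of its 144 arrays. The question was whether the blood carries a transcript response that separates a high from a low exposure. Arrays labelled 24 h were taken, and the dose of each rat was read from the deposited key through its rat number, because the array labels are blinded to dose. That gave 6 rats at 1500 mg/kg and 6 rats at 150 mg/kg. All animals were male rats of the inbred strain F344/N, aged 10 to 12 weeks, with acetaminophen or vehicle given by mouth in 0.5% ethyl cellulose as 2 portions. The study had 6 rats at each of 12 combinations of dose (0, 150, 1500 or 2000 mg/kg) and time (3, 6 or 24 h), and the 0 mg/kg rats received the vehicle only. Besides the 2 groups compared, the rats at 1500 and 150 mg/kg at 3 h and 6 h and the rats at 2000 and 0 mg/kg at 24 h are used below. For every animal 2 arrays were run, with swapped dyes, against RNA pooled from the 6 vehicle rats of the same time.

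Acetaminophen is an analgesic that is conjugated in the liver at low doses, while at high doses a reactive metabolite depletes glutathione and damages hepatocytes around the central vein. Dying hepatocytes release molecules that activate innate immune cells, and neutrophils and monocytes enter the blood and the injured liver. Whole blood RNA comes from leukocytes, reticulocytes and platelets, so a transcript can change there because a cell type became more or less frequent or because its cells changed their expression. In these bulk samples fewer cells of a type and less RNA per cell cannot be told apart.

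Every value below is a log2 ratio of a rat over the vehicle pool, the mean of its 2 arrays, and, unless other groups are named, every difference is the 1500 mg/kg mean minus the 150 mg/kg mean, ± the standard error of the fit. Neither log base nor direction is named in the deposited table, and base 10 and Cy5 over Cy3 were assumed. Another base would rescale every value and the other direction would turn every sign, with the same p-values. The deposited values are ratios with no intensity, so whether a marker of a blood cell was present or absent, and any order of levels between genes, cannot be read from them. Of the marker lists for blood cells, 15 of 22 T cell genes, 14 of 25 neutrophil genes, 16 of 20 monocyte genes and 23 of 36 erythroid genes were tested. With the mean of each dye orientation removed, the 2 arrays of a rat correlated between -0.26 and 0.51 over features in the 1500 mg/kg rats and between -0.035 and 0.14 in the 150 mg/kg rats, and the correlation was below 0 for rats 3046 and 6173 at 1500 mg/kg and rat 7186 at 150 mg/kg. A feature is a gene with 1 symbol, its probes averaged, or a probe without one, and 14678 features were tested with limma. A feature passed the threshold at a two-sided adjusted p (Benjamini-Hochberg) under 0.05.

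At 24 h, 152 features passed the threshold for 1500 against 150 mg/kg, which is 1.04% of those tested. Of these, 100 were higher (0.681%) and 52 were lower (0.354%) at 1500 mg/kg. Among the 104 with a gene symbol, 69 rose and 35 fell. The rises were larger than the falls: 23 features rose by at least 2-fold, and 0 fell by that much. The calls rest on a spread estimated over all 72 rats: 28 features passed in a fit of the 24 h rats alone and 0 in a fit of the 12 rats alone, with 864 and 1135 features at an unadjusted p under 0.05. Chance alone would put a share of about 0.05 of the 14678 features there. Counts at an unadjusted p, here and below, therefore show no change by themselves. Of the 49 named genes past the threshold described below, 12 also passed with the 24 h rats alone. They were Anxa1, Slpi, Cfd and Tpd52 of the 15 largest rises, Cd36, Kpna1, Cat, Cmas, Mkrn1 and Usp15 of the 15 largest falls, and Bcl3 and Mgst1. The 5 largest rises did not pass there, with adjusted p of 0.067 for Serpinb1a, 0.076 for S100a9 and Il1r2, 0.085 for Mmp8 and 0.23 for S100a8. Single rats also moved the count, which was 74 without rat 0861, 93 without rat 8385 and 101 without rat 0572, and 22 with rats 0861 and 8385 both left out, an omission chosen after seeing the data.

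**Figure D1:**
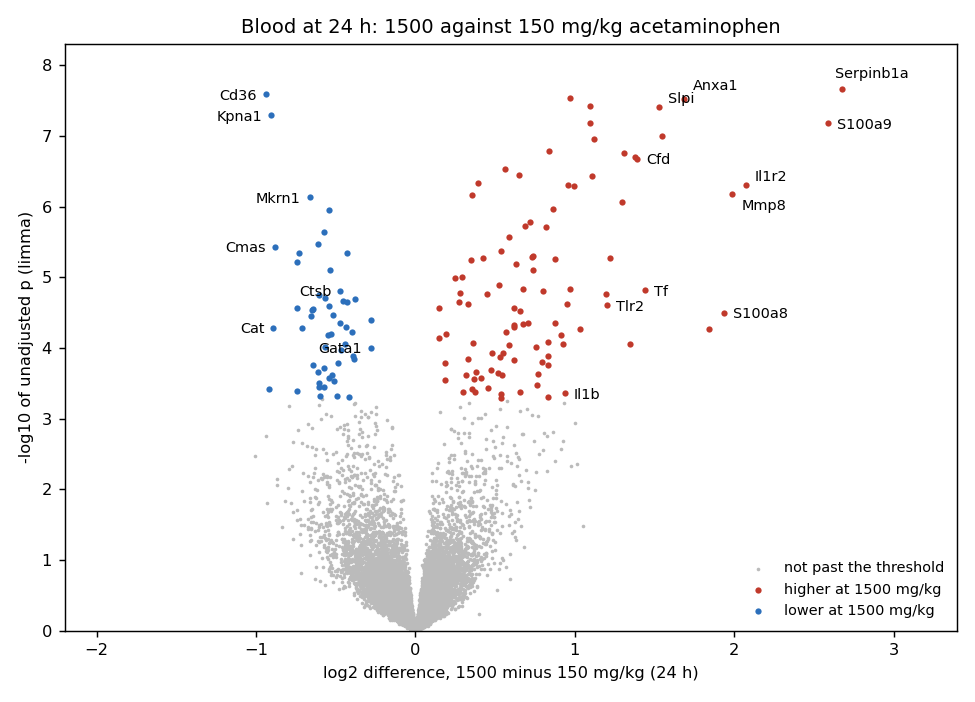
Each point is a feature, with the log2 difference of 1500 minus 150 mg/kg at 24 h on the x axis and -log10 of the unadjusted limma p on the y axis. Red points (100) were higher and blue points (52) lower past the threshold, and the named rises reach 2.68 (Serpinb1a) while the largest named fall is -0.94 (Cd36).

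The named genes with the largest rises included the calprotectin subunits, a neutrophil collagenase, protease inhibitors and a decoy receptor for interleukin 1. Serpinb1a, a serpin that inhibits the neutrophil proteases elastase, cathepsin G and proteinase 3, had a lowest, median and highest value of 0.47, 2.19 and 4.59 in the 1500 mg/kg rats, against -1.05, -0.081 and 0.63 in the 150 mg/kg rats. Its mean was 2.45 ± 1.65 in the 1500 mg/kg rats and -0.23 ± 0.68 in the 150 mg/kg rats (SD, n = 6 each), a difference of 2.68 ± 0.42 or 6.4-fold (limma adjusted p = 9.6e-05). Of the 1500 mg/kg rats, 5 lay above every 150 mg/kg rat, and rat 3046 lay within their range. S100a9, a subunit of the calcium-binding alarmin calprotectin, had values of 0.48, 2.08 and 4.36 in the 1500 mg/kg rats, against -0.83, -0.27 and 0.40 in the 150 mg/kg rats. The groups did not overlap, and the difference was 2.59 ± 0.42 or 6.02-fold (adjusted p = 0.00011). Its partner subunit S100a8 had values of 0.22, 1.75 and 4.36 in the 1500 mg/kg rats, against -0.11, 0.13 and 0.96 in the 150 mg/kg rats. Here 4 of the 1500 mg/kg rats lay above all 150 mg/kg rats, the difference was 1.94 ± 0.43 (adjusted p = 0.0061), and the call was lost without rat 0861 or without rat 8385.

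Mmp8, the collagenase stored in neutrophil granules, was the other of the 15 largest rises in which the groups did not overlap, with values of 0.37, 1.77 and 3.37 in the 1500 mg/kg rats, against -0.63, -0.12 and 0.029 in the 150 mg/kg rats. It differed by 1.99 ± 0.36 or 3.97-fold (adjusted p = 0.00041). Il1r2, the decoy receptor that binds interleukin 1 without signalling, had values of 0.48, 1.90 and 3.78 in the 1500 mg/kg rats, against -0.45, -0.041 and 0.51 in the 150 mg/kg rats, and 5 of 6 rats at 1500 mg/kg lay above all rats at 150 mg/kg. The difference was 2.07 ± 0.37 (adjusted p = 0.00034). Anxa1, a glucocorticoid-inducible phospholipid-binding protein of neutrophils and monocytes, had values of 0.22, 1.47 and 2.49 in the 1500 mg/kg rats, against -0.73, -0.22 and 0.35 in the 150 mg/kg rats. Again 5 of 6 rats lay above the 150 mg/kg range, with a difference of 1.68 ± 0.27 (adjusted p = 9.6e-05). Slpi, a secreted inhibitor of leukocyte elastase, had values of 0.24, 1.42 and 2.33 in the 1500 mg/kg rats, against -0.83, -0.37 and 0.85 in the 150 mg/kg rats. Only 4 of 6 rats exceeded the 150 mg/kg range for it, and it differed by 1.53 ± 0.24 (adjusted p = 9.6e-05). Pglyrp1, a peptidoglycan-binding protein of neutrophil granules, differed by 1.12 ± 0.19 (adjusted p = 0.00015) and Ceacam4, of the carcinoembryonic antigen adhesion family, by 1.10 ± 0.17 (adjusted p = 9.6e-05). The genes belong in part to families with close relatives, and whether their probes also bind those relatives was not tested.

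The stretches around the gene starts of 3 leading rises and of the leading fall are shown: Serpinb1a had the largest difference, S100a9 and Mmp8 had no overlap between the groups, and Cd36 had the largest named fall. They are the RefSeq promoters of build GRCr8, 250 bases before to 50 bases after each start, with capitals marking matches on either strand to the letters TTGCNNAA for C/EBP factors, GAGGAAG for PU.1, and AGATAA for the red cell factor family that includes Gata1, which do not overlap one another in these stretches. A match is a run of letters and no evidence of binding.
Serpinb1a (chr17:31799196-31799495, plus strand): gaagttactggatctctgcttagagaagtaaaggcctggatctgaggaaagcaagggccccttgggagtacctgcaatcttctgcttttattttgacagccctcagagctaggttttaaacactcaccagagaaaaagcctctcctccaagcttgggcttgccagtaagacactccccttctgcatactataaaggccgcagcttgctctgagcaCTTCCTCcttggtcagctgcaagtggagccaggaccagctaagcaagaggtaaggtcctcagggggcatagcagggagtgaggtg
S100a9 (chr2:178490573-178490872, minus strand): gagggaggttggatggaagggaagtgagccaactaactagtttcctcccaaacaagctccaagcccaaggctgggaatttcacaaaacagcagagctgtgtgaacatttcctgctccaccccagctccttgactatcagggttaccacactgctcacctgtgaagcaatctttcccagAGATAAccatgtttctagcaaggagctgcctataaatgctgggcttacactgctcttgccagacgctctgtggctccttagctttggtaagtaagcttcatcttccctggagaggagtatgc
Mmp8 (chr8:13008640-13008939, plus strand): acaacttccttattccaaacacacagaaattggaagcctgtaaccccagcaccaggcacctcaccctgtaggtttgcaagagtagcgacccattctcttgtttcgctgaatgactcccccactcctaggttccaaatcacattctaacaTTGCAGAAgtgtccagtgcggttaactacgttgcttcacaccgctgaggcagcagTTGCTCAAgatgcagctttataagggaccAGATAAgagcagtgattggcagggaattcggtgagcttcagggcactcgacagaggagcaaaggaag
Cd36 (chr4:18246332-18246631, plus strand): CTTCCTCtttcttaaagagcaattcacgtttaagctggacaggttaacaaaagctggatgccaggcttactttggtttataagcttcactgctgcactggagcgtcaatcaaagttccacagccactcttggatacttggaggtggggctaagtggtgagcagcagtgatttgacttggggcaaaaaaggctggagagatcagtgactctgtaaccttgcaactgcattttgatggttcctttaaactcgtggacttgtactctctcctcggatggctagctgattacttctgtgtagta
Of the 15 largest named rises, 10 had a promoter in the RefSeq table, and TTGCNNAA was found in 3 (Anxa1, Mmp8, Tf), GAGGAAG in 2 (Pglyrp1, Serpinb1a) and AGATAA in 3 (Mmp8, Pglyrp1, S100a9). Of the 15 largest named falls, 13 had one, and the same letters were found in 0, 3 (Cd36, Cmas, Ell2) and 0. Over all 33469 promoters of that table, 10.6% held the first, 12.4% the second and 11.6% the third.

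Tlr2, C5ar1, Gng10 and Tpd52, which act in sensing, signalling or vesicle traffic, were also among the 15 largest rises. Tlr2, the receptor for bacterial lipoproteins, had values of -0.031, 1.12 and 1.83 in the 1500 mg/kg rats, against -0.72, -0.44 and 0.64 in the 150 mg/kg rats. It differed by 1.20 ± 0.26 (adjusted p = 0.0053), and its call was lost without rat 0861. C5ar1, which binds the complement peptide C5a on phagocytes, had values of -0.39, 1.13 and 1.68 in the 1500 mg/kg rats, against -0.86, -0.35 and 0.68 in the 150 mg/kg rats, so that 1 rat at 1500 mg/kg lay within the 150 mg/kg range and 5 above it. Its difference was 1.19 ± 0.26 (adjusted p = 0.0043). Gng10, a gamma subunit of heterotrimeric G proteins, differed by 1.22 ± 0.25 (adjusted p = 0.0019), and Tpd52, a protein of vesicle traffic, by 0.997 ± 0.18 (adjusted p = 0.00034). Both had 5 of 6 rats above the 150 mg/kg range.

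Cfd and Tf encode secreted proteins. Cfd, the serine protease factor D of the alternative complement pathway, had values of 0.67, 1.14 and 1.78 in the 1500 mg/kg rats, against -0.93, -0.41 and 0.73 in the 150 mg/kg rats, with 5 of 6 rats above the 150 mg/kg range. The difference was 1.39 ± 0.24 (adjusted p = 0.00021). Tf, transferrin, the iron carrier of plasma, which the liver makes, had values of 0.073, 1.34 and 2.95 in the 1500 mg/kg rats, against -0.40, -0.10 and 0.52 in the 150 mg/kg rats. The difference was 1.44 ± 0.31 (adjusted p = 0.0041), and the call was lost without rat 0861. Of 36 tested genes of liver-secreted proteins, Tf and Fetub (fetuin B, 0.66 ± 0.15, adjusted p = 0.0059) rose and 0 fell, and the Fetub call was lost without rat 0861 or rat 0572. The mean of that list was highest in rats 0861 (0.45) and 8385 (0.26), against -0.071 to 0.14 in the other 4 rats at 1500 mg/kg and -0.037 to 0.045 in the 150 mg/kg rats. Those means include Tf and Fetub, which were called by this comparison. Of the 36 genes, 28 had a difference above 0, against 47.92% of all features. The list median was 0.066, and 0.015 without rats 0861 and 8385. Members such as Apoa1 (0.044) and Fgb (0.20) did not pass.

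**Figure D2:**
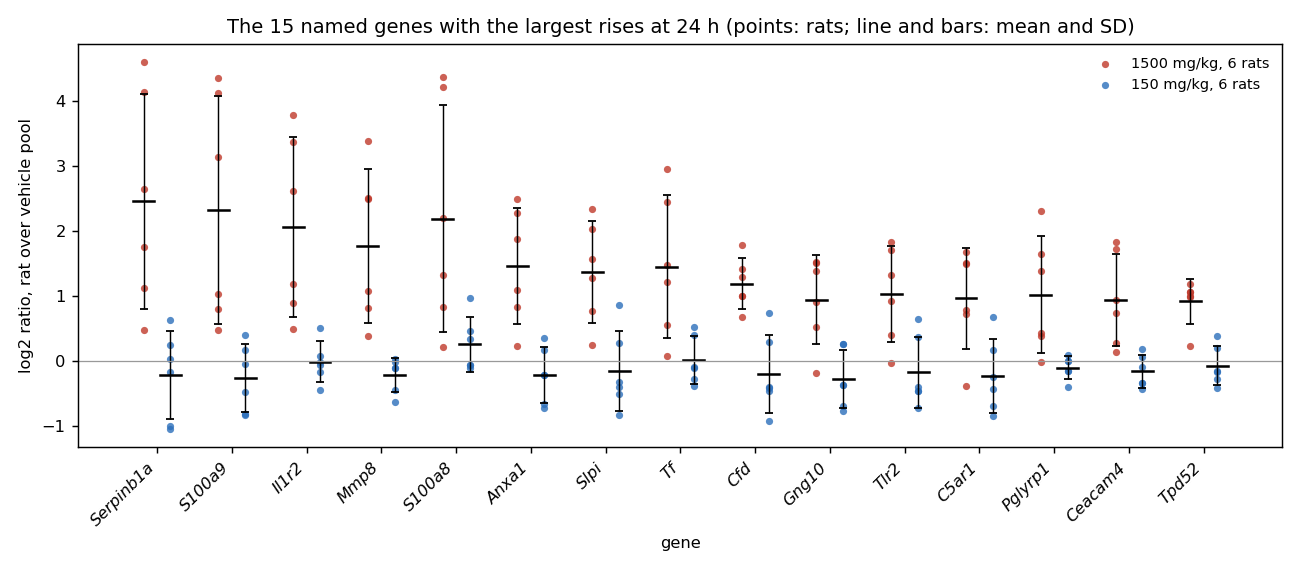
Log2 ratio over the vehicle pool (y axis) at 24 h for the 15 named genes with the largest rises (x axis), with 1 point per rat, 1500 mg/kg in red to the left of 150 mg/kg in blue, and black lines and bars for mean and SD. S100a9 and Mmp8 do not overlap between the groups, and the lowest red point of each of the 15 genes is rat 3046.

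The largest named falls were smaller in size, and 8 of the 15 had groups that did not overlap, against 2 of the 15 rises. Over all features tested, all 1500 mg/kg rats lay below all 150 mg/kg rats in 0.388% and above them in 0.184%, or 0.572% together. Among the features called, this held for 25 of the 52 lower ones and 10 of the 100 higher ones. Cd36, a scavenger receptor and fatty acid transporter, had values of -1.97, -0.98 and -0.41 in the 1500 mg/kg rats, against -0.40, -0.11 and 0.16 in the 150 mg/kg rats. It was 1.91-fold lower at 1500 mg/kg (-0.94 ± 0.15, adjusted p = 9.6e-05). Kpna1, an importin alpha that carries proteins into the nucleus, had values of -1.30, -0.71 and -0.30 in the 1500 mg/kg rats, against -0.18, 0.14 and 0.48 in the 150 mg/kg rats. It differed by -0.91 ± 0.15 (adjusted p = 0.00011), also with no overlap.

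Cat, catalase, which breaks down hydrogen peroxide, had values of -1.29, -0.83 and -0.24 in the 1500 mg/kg rats, against -0.20, 0.12 and 0.44 in the 150 mg/kg rats. It was lower by 1.85-fold (-0.89 ± 0.20, adjusted p = 0.0087), a call lost without rat 8385. Cmas, which activates sialic acid for transfer to glycans, had values of -1.40, -0.66 and -0.41 in the 1500 mg/kg rats, against -0.23, 0.065 and 0.31 in the 150 mg/kg rats, a difference of -0.88 ± 0.17 (adjusted p = 0.0016). In both genes every 1500 mg/kg rat lay below every 150 mg/kg rat, as in Ranbp10, Mkrn1, Eef1e1 and Cbln2. Mkrn1, an E3 ubiquitin ligase, differed by -0.66 ± 0.12 (adjusted p = 0.00043). Ranbp10, which binds the GTPase Ran, differed by -0.74 ± 0.16 (adjusted p = 0.0056), a call lost without rat 0861. Usp15, a deubiquitinase, differed by -0.61 ± 0.12 (adjusted p = 0.0015) with 5 of 6 rats below the 150 mg/kg range.

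The other large falls were Sec62 of the endoplasmic reticulum translocon (-0.74), Eef1e1 of the tRNA synthetase complex (-0.64), Enpp1, a nucleotide pyrophosphatase (-0.61), the corepressor Cir1 (-0.60), the RNA polymerase II elongation factor Ell2 (-0.58), the synaptic organiser Cbln2 (-0.57), Bsdc1 (-0.57) and asparagine synthetase, Asns (-0.57). Their adjusted p ran up to 0.048, and Sec62, Eef1e1, Enpp1, Cir1, Cbln2 and Asns lost the call in 4 to 7 of the 12 omissions of a single rat, those of rats 0861 and 8385 included. Asns was the one of the 15 falls in which 1 rat at 1500 mg/kg lay above 0 (0.046).

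**Figure D3:**
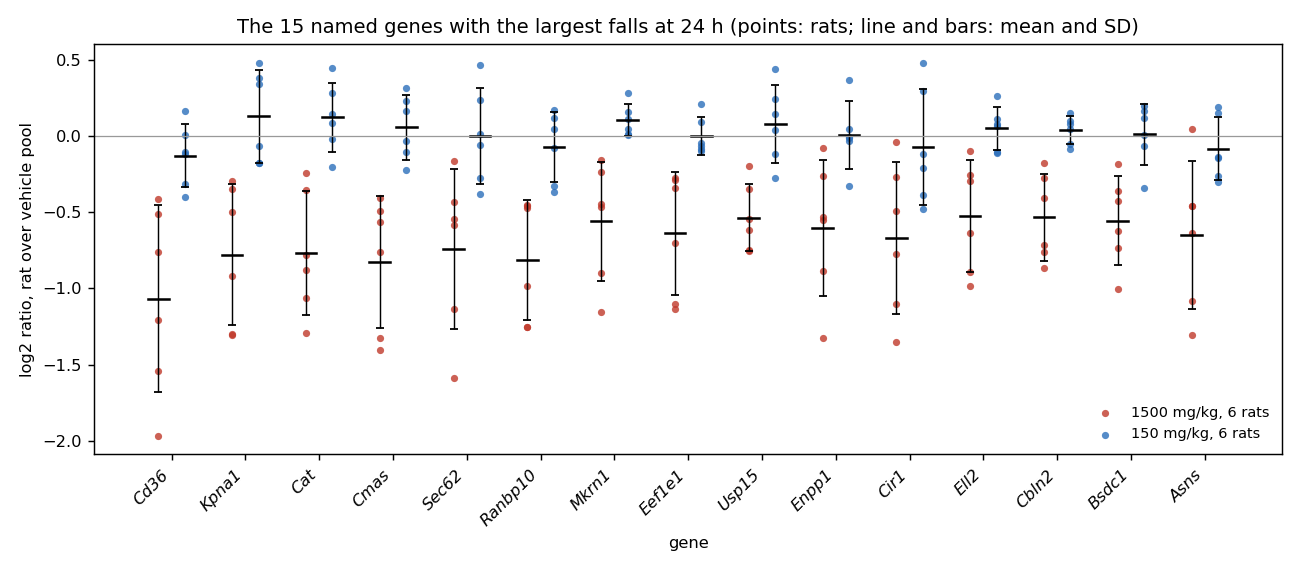
Log2 ratio over the vehicle pool (y axis) at 24 h for the 15 named genes with the largest falls (x axis), with 1 point per rat, 1500 mg/kg in red to the left of 150 mg/kg in blue, and black lines and bars for mean and SD. In 8 of the 15 genes every red point lies below every blue point, and the lowest point of all is a Cd36 value of -1.97.

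Counts over the gene lists are read against the 0.681% of all features that were higher and the 0.354% that were lower, and a median against -0.0051 over all features, of which 47.92% had a difference above 0. The lists were written with earlier results of these data known, and genes such as Il1r2 stand in several of them. The counts therefore describe the lists and test nothing. Of 14 neutrophil genes tested, 5 rose (S100a9, Il1r2, Mmp8, S100a8 and Anxa1) and 0 fell, and the median was 0.18. Of those 5, Anxa1 alone passed with the 24 h rats alone. The list was not uniform. The oxidase subunit Ncf4 had a difference of 0.65 and gelatinase B, Mmp9, 0.073, and neither passed. The chemokine receptor Cxcr2 (-0.048), the ficolin Fcnb (-0.077) and the granulocyte transcription factor Cebpe (-0.30) had differences below 0 and did not pass. Of 16 monocyte and macrophage genes, 3 rose and 1 fell, with a median of -0.0088. Those that rose were Fcgr1a, the high-affinity IgG receptor (0.88 ± 0.18), Lgals3, galectin 3 (0.54 ± 0.11), and the adaptor Tyrobp (0.41 ± 0.11), while Cd36 fell. Tyrobp was lost as a call without any of rats 0861, 8385, 2486, 0572, 1580 or 2344.

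Genes of inflammation, complement and Fc receptors rose singly within lists whose medians lay near that of all features. Among 28 inflammatory cytokine and NF-kappaB genes, 4 rose, 0 fell and the median was 0.062. These were Il1r2, Tlr2, Il1b, the cytokine interleukin 1 beta, and Bcl3, a nuclear regulator of NF-kappaB. Bcl3 had values of 0.50, 0.63 and 0.85 in the 1500 mg/kg rats, against -0.40, 0.0009 and 0.36 in the 150 mg/kg rats. The groups did not overlap, and the difference was 0.65 ± 0.11 (adjusted p = 0.0003). Its 2 probes differed in size, at 1.03 and 0.27, the one of 6 such genes with several probes whose probes were more than 2 times apart. Il1b had values of 0.26, 0.78 and 1.35 in the 1500 mg/kg rats, against -1.06, -0.20 and 0.72 in the 150 mg/kg rats. It differed by 0.94 ± 0.25 (adjusted p = 0.044), and leaving out any of rats 0184, 0861, 2486, 6173, 0572, 1580, 2344 or 7186 lost the call, while the difference lay between 0.76 and 1.12 in all 12 omissions. Tnf (0.051) and Ptgs2 (0.092) did not pass, nor did Ccl2 (1.05), whose difference exceeded that of Il1b.

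Among 18 complement and ficolin genes, Cfd and C5ar1 rose and 0 fell, with a median of 0.015. Of 14 Fc receptor and adaptor genes, 3 rose and 0 fell: Fcgr1a, Tyrobp and Fcgr2b, the inhibitory IgG receptor. Fcgr2b had values of 0.15, 0.97 and 1.52 in the 1500 mg/kg rats, against -0.47, 0.017 and 0.59 in the 150 mg/kg rats, and differed by 0.83 ± 0.23 (adjusted p = 0.048), a call lost in 9 of those 12 omissions. Of 20 chemokines and receptors, Ccl6 alone passed (0.77 ± 0.20, adjusted p = 0.027), and its call was lost in 6 of the 12. Of 26 interferon response genes, Oas1a, a sensor of double-stranded RNA (0.67 ± 0.14, adjusted p = 0.0041), and the antiviral membrane protein Ifitm1 (0.45 ± 0.096, adjusted p = 0.0043) rose and 0 fell. Irf7, a transcription factor of that response, had a difference of -0.61 and Ifit3 one of 0.98, and neither passed.

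Genes of the antioxidant and glutathione system moved in both directions. Of 41 tested, 3 rose and 2 fell, with a median of -0.021. Prdx5, a peroxiredoxin, had values of -0.09, 0.76 and 1.69 in the 1500 mg/kg rats, against -0.47, -0.18 and 0.44 in the 150 mg/kg rats and differed by 0.92 ± 0.22 (adjusted p = 0.013). Mgst1, a microsomal glutathione transferase (0.73 ± 0.15, adjusted p = 0.0019), and Glrx, glutaredoxin (0.62 ± 0.15, adjusted p = 0.019), were the other rises, each with 5 of 6 rats above the 150 mg/kg range. The falls were Cat and Gclm, the regulatory subunit of the enzyme that limits glutathione synthesis, with -0.38 ± 0.082 (adjusted p = 0.0049). Nqo1 (0.83), Sod2 (0.64) and Hmox1 (0.14), other known targets of stress signalling, did not pass. Prdx5 lost its call without rat 0861, 8385 or 0572, Glrx without any of these or of rats 6173, 2344 and 7186, and Gclm without rat 8385.

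Of 21 genes of lysosomal proteases and the phagocyte oxidase, Cd63, a membrane protein of granules and lysosomes, rose (0.43 ± 0.086, adjusted p = 0.0019) and Ctsb, cathepsin B, fell (-0.47 ± 0.10, adjusted p = 0.0041). Ctsb had no overlap between the groups, with values of -0.84, -0.31 and -0.098 in the 1500 mg/kg rats, against -0.027, 0.088 and 0.16 in the 150 mg/kg rats, and its call was lost without rat 0861. Of 30 genes of p53, the Bcl2 family and apoptosis, cyclin G1, Ccng1, rose (0.71 ± 0.16, adjusted p = 0.008; lost without rat 0184), while its fellow p53 targets Mdm2 (-0.011) and Cdkn1a (0.045) did not pass. Of 27 glycolysis and hypoxia genes, the lactate exporter Slc16a3 rose (0.37 ± 0.095, adjusted p = 0.03), a call lost in 8 of the 12 omissions. Cd36 was the member that passed among 29 genes of fatty acid oxidation, where the median was -0.031, and Asns among 23 of unfolded protein and amino acid stress, where it was -0.0018. Il1r2 and Anxa1 were those that passed among 23 glucocorticoid targets and metallothioneins, with a median of 0.024.

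Among erythroid genes Gata1 fell. Of 23 genes of erythroid cells and haem synthesis, 17 had a difference below 0, the median was -0.15, and 1 passed. Gata1, the transcription factor of red cell and platelet precursors, had values of -0.53, -0.29 and -0.17 in the 1500 mg/kg rats, against -0.099, -0.034 and 0.04 in the 150 mg/kg rats. The groups did not overlap although the difference was small (-0.28 ± 0.066, adjusted p = 0.014), and the call was lost without rat 0861 or rat 8385. The band 3 anion exchanger Slc4a1 (-0.39) and the first enzyme of haem synthesis in red cells, Alas2 (0.15), did not pass. By rat, the list mean was -0.29 (rat 8385), -0.22 (rat 2486) and -0.22 (rat 0861), against -0.0002 to 0.015 in the other 3 rats at 1500 mg/kg and -0.053 to 0.15 in the 150 mg/kg rats.

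In T cell, B cell and natural killer lists 0 genes passed, and the list means were lowest in rats 0861 and 8385. The T cell median was -0.31 over 15 genes, with Lck, the kinase of the T cell receptor, at -0.74 ± 0.31 (adjusted p = 0.45) and Cd6 at -0.68 ± 0.32 (adjusted p = 0.58). Lck had values of -2.04, -0.30 and 0.76 in the 1500 mg/kg rats, against -0.21, 0.25 and 0.47 in the 150 mg/kg rats. The list mean was -0.96 in rat 8385 and -0.79 in rat 0861, against -0.21 to 0.20 in the other 4 rats at 1500 mg/kg and -0.19 to 0.099 in the 150 mg/kg rats. Without those 2 rats, an omission chosen after seeing the data, the median was -0.028. The B cell median was -0.18 over 8 genes, with Spib at -0.72 ± 0.35 and the immunoglobulin joining chain, Jchain, at -0.72 ± 0.32, and it was 0.0064 without the 2 rats. The natural killer median was -0.012 over 17 genes, 7 of which had a difference above 0 and 10 below, and it was 0.080 without the 2 rats. Its members ran from Il2rb at -0.48 ± 0.21 and Ccl5 at -0.36 ± 0.25 up to the chemokine Xcl1 at 0.29.

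The same 2 rats had the lowest list means for genes of general cell function. For 47 ribosomal proteins the mean was -0.44 in rat 8385 and -0.36 in rat 0861, against -0.098 to 0.17 in the other 4 rats at 1500 mg/kg and -0.19 to 0.12 at 150 mg/kg. For 51 genes of oxidative phosphorylation it was -0.38 in rat 8385 and -0.39 in rat 0861, against -0.17 to 0.11 in the other 4 rats and -0.15 to 0.10 at 150 mg/kg. For 25 translation factors it was -0.66 in rat 8385 and -0.56 in rat 0861, against -0.16 to 0.20 in the other 4 rats and -0.12 to 0.16 at 150 mg/kg. In these lists, and in those of proteasome, heat shock, immediate early, cell cycle, circadian, adhesion and actin, MHC and platelet genes, 0 members passed in either direction. The values farthest from 0 among their members were -0.82 for the immediate early gene Nr4a1, -0.66 for Eif4b, -0.61 for Cdc25b and -0.59 for Dusp6. Rats 0861 and 8385 were also the rats with the highest neutrophil list means (1.34 and 1.18). Those means include the 5 members called by this comparison, and without the 2 rats the neutrophil median was 0.24, against 0.18 with them. The part that a shift between cell types has in the neutrophil or erythroid values was not tested.

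**Figure D4:**
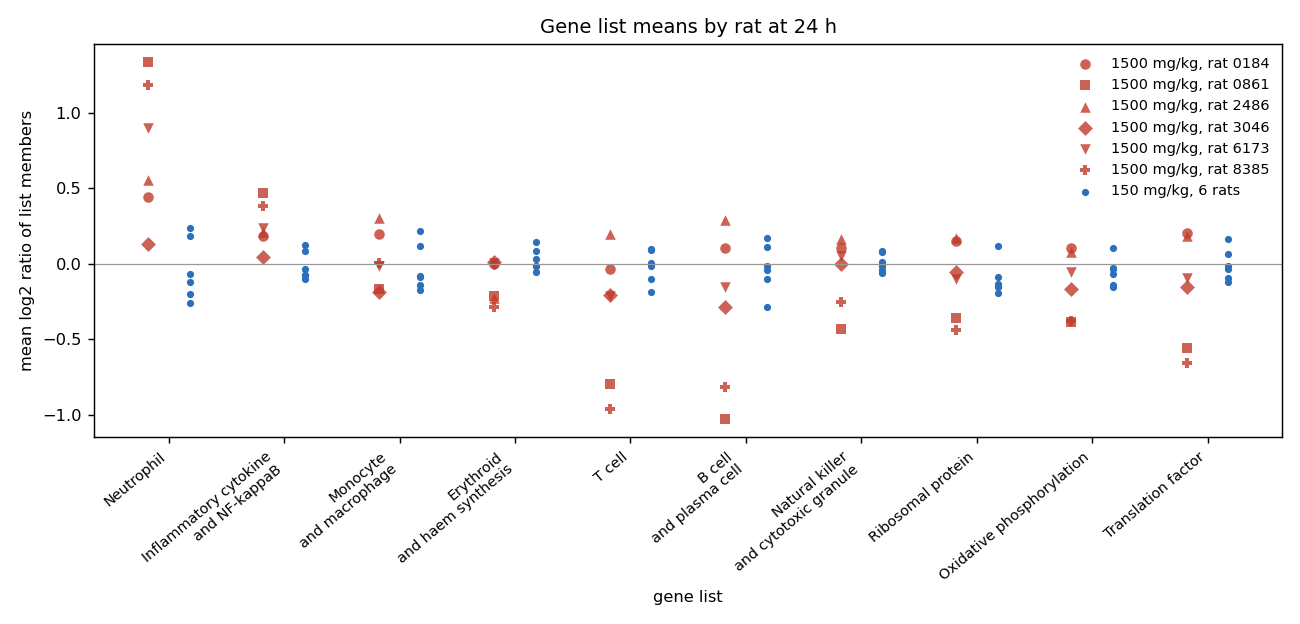
Mean log2 ratio over the vehicle pool of the members of 10 gene lists (y axis, log2; x axis, lists) at 24 h, with a red symbol for each 1500 mg/kg rat to the left of blue points for the 150 mg/kg rats. Rats 0861 and 8385 are highest for the neutrophil list and lowest for the T cell, B cell, ribosomal, oxidative phosphorylation and translation lists.

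The 1500 mg/kg rats differed among themselves. Over the 100 higher features the mean log2 ratio was 1.16 in rat 0861, 0.96 in rat 8385, 0.89 in rat 6173, 0.58 in rat 2486, 0.54 in rat 0184 and 0.12 in rat 3046, against -0.38 to 0.22 in the 150 mg/kg rats. Rat 3046 thus lay among the 150 mg/kg rats for the features that rose. Since these features were chosen by this comparison, the values describe the rats and test nothing. Rat 3046 exceeded every 150 mg/kg rat in 21 of the 100, while the other rats at 1500 mg/kg did so in 83 to 97. Over the 52 lower features it lay below every 150 mg/kg rat in 42, within the range of 32 to 52 of the other rats. Its mean over them was -0.37, against -0.29 to -0.95 in the others and -0.15 to 0.12 at 150 mg/kg. Without rat 3046 the count of features past the threshold was 209. Of the 49 named genes past the threshold 26 kept their call whichever rat was left out, among them 12 of the 15 largest rises and 7 of the 15 largest falls. With rats 0861 and 8385 both left out, an omission chosen after seeing the data, 11 of the 49 kept it. All 49 kept their sign.

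The same doses were compared at 3 h and 6 h. Arrays with and without values for 500 features, left out here, are called array designs. This split was inferred from the missing values and is named by no label. It went partly with time. All arrays of the 12 rats compared at 24 h lacked the 500 features, while the 3 h and 6 h groups held arrays with and without them. At 3 h, 481 features passed for 1500 against 150 mg/kg (3.28%), 42 higher (0.286%) and 439 lower (2.99%), and at 6 h 2 passed (0.0136%), both lower. Of the 100 features higher at 24 h, 24 had a difference above 0 at 3 h and 55 at 6 h, against 56.12% and 52.36% of all features. Of the 52 lower at 24 h, 32 had a difference above 0 at 3 h and 8 at 6 h. At both 24 h and 3 h 14 features passed, and 0 of them had the same sign. The interaction between dose and time, 24 h minus 3 h, passed for 161 features (1.1%), 134 higher (0.913%) and 27 lower (0.184%), and for 13 features (0.0886%), all higher, for 24 h minus 6 h. The first count ran from 95 (without rat 0572) to 221 (without rat 3046) when single rats were left out. The second was 0 in limma without rat 0572, 0861 or 6173 (649, 907 and 674 features at an unadjusted p under 0.05), 1 without rat 2344 or 7186, and 7 to 50 without any one of the other rats, with the highest count without rat 3046. With array design as a covariate, 144 features passed for 24 h minus 3 h and 18 for 24 h minus 6 h.

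The 15 largest rises and falls were chosen by their 24 h difference, which is a term of the 24 h minus 3 h difference, so how many of them passed the second is a description and tests nothing. Among the 15 largest rises 13 passed for 24 h minus 3 h, and Il1r2 and S100a8 did not. Serpinb1a differed between the doses by -0.33, 0.94 and 2.68 at 3, 6 and 24 h, and by 3.004 between 24 h and 3 h (adjusted p = 0.0018). Il1r2 differed by 1.07, 1.54 and 2.07, so its difference was above 0 at all 3 times and the gap of 1.005 between 24 h and 3 h did not pass (adjusted p = 0.6). C5ar1 was the gene of these 15 that passed at 3 h, in the other direction, with -0.90, -0.068 and 1.19 at 3, 6 and 24 h. The same turn was seen for Prdx5, with -1.16, -0.28 and 0.92, and Fcgr2b, with -0.77, -0.18 and 0.83. Bcl3, Lgals3 and Tyrobp likewise passed at 3 h as lower and at 24 h as higher.

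Of the 15 largest falls 6 passed for 24 h minus 3 h, namely Cd36, Kpna1, Cmas, Ranbp10, Usp15 and Ell2, and 0 passed at 3 h or at 6 h alone. Cd36 differed by 0.11, -0.21 and -0.94 at 3, 6 and 24 h. Catalase differed by -0.14, -0.079 and -0.89, and the gap between 24 h and 3 h did not pass (adjusted p = 0.31). Bcl2a1, a survival protein of the Bcl2 family, did not pass at 24 h (adjusted p = 0.3) but passed for 24 h minus 6 h, with differences of -1.07, -0.98 and 0.62. The B cell factor Spib was lowest at 3 h, with -1.58, -0.82 and -0.72, and passed at 3 h (adjusted p = 0.0088). Its 24 h minus 3 h gap did not pass (adjusted p = 0.66).

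**Figure D5:**
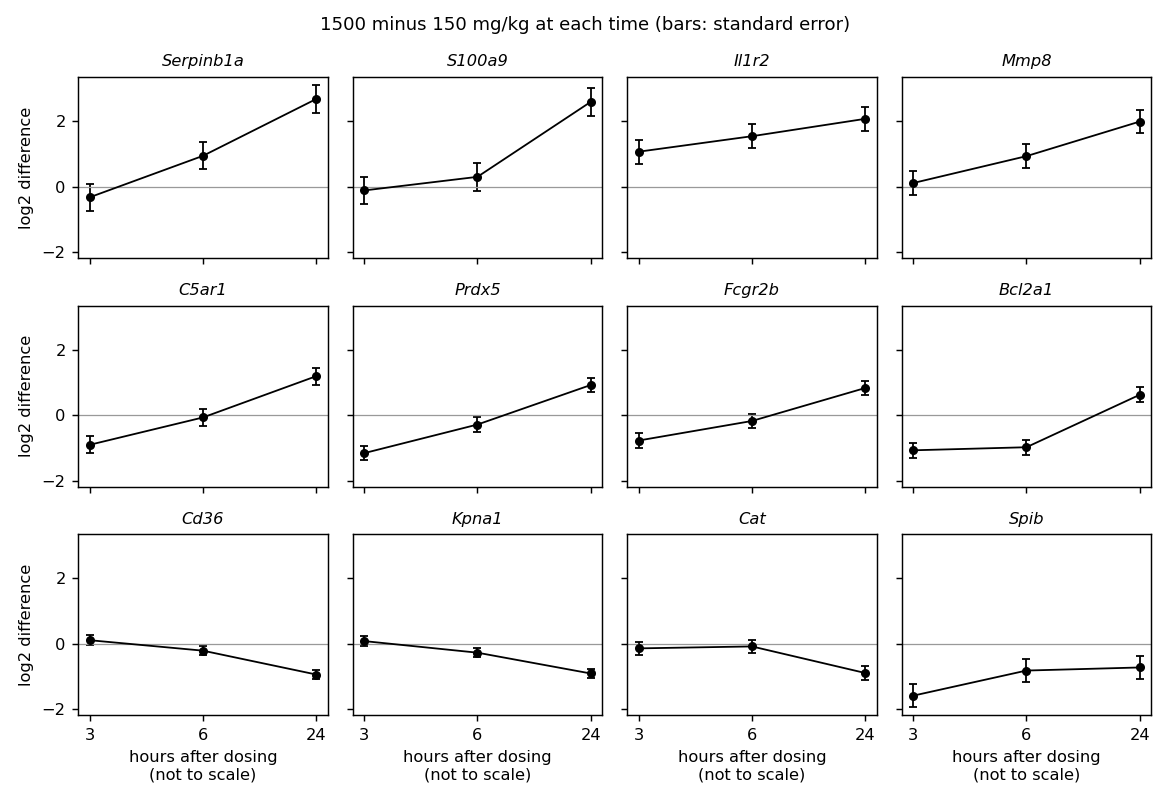
Log2 difference of 1500 minus 150 mg/kg (y axis) at 3, 6 and 24 h (x axis, hours, not to scale) for 12 genes, with bars for the standard error of the fit. C5ar1, Prdx5, Fcgr2b and Bcl2a1 lie below 0 at 3 h and above it at 24 h, while Il1r2 lies above 0 and Spib below 0 at all 3 times.

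At 24 h, for 150 against 0 mg/kg 0 features passed in limma (0%), with 399 at an unadjusted p under 0.05, and for 1500 against 0 mg/kg 178 passed (1.21%), 124 higher and 54 lower. These comparisons share rats with the one described here. Mean log2 ratios at 0, 150, 1500 and 2000 mg/kg were -0.17, -0.23, 2.45 and 1.80 for Serpinb1a, -0.15, -0.27, 2.32 and 1.59 for S100a9, 0.17, -0.02, 2.05 and 2.005 for Il1r2 and 0.014, -0.13, -1.07 and -0.99 for Cd36. In each of these 4 genes the means at 0 and 150 mg/kg differed by less than the SD of either group, and so did those at 1500 and 2000 mg/kg.

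The rats at 2000 and 0 mg/kg at 24 h entered neither group and could be used as a separate look at the same genes, although they share the vehicle pool and the fit. This comparison was added after seeing the data. For 2000 against 0 mg/kg 120 features passed (0.818%), 72 higher (0.491%) and 48 lower (0.327%). All 100 features higher at 1500 against 150 mg/kg had a 2000 mg/kg mean above the 0 mg/kg mean, and 52 of them passed. All 52 lower features had a 2000 mg/kg mean below the 0 mg/kg mean, and 29 passed. The median of 2000 minus 0 mg/kg was 0.53 over the higher features and -0.49 over the lower ones, against -0.0023 over all features, of which 48.96% lay above 0. The medians of 1500 minus 150 mg/kg over the same features were 0.70 and -0.56, the values by which the features had been called.

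Of the 15 largest rises 13 passed for 2000 against 0 mg/kg, and S100a8 (1.48 ± 0.43, adjusted p = 0.09) and Tf (0.99 ± 0.31, adjusted p = 0.12) did not. Serpinb1a differed there by 1.97 ± 0.42 and Mmp8 by 1.64 ± 0.36. Of the 15 largest falls 10 passed, among them Cd36 with -1.01 ± 0.15 (adjusted p = 5.5e-05). Catalase (-0.57 ± 0.20, adjusted p = 0.23), Sec62, Eef1e1, Ell2 and Cbln2 did not pass, all with differences below 0. Il1b differed by 1.10 ± 0.25 for 2000 against 0 mg/kg (adjusted p = 0.012), and Fcgr2b by 1.10 ± 0.23 (adjusted p = 0.005). T cell gene Lck, which did not pass in either comparison, differed by -0.59 ± 0.31.

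The spread between rats was larger at 1500 than at 150 mg/kg. The median SD was 0.36 at 1500 mg/kg and 0.26 at 150 mg/kg over the higher features, and 0.32 and 0.18 over the lower ones. Over all features tested it was 0.20 at 1500 mg/kg and 0.14 at 150 mg/kg, with 0.20 in the vehicle rats of the same time. The fit assumes the same spread in every group.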

How the data were processed

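Blood RNA was measured on 2-colour arrays, with each rat against the vehicle pool of its time and the dyes swapped. The deposited table holds log10 ratios as taken here; per the file headers it names neither scale, centring nor direction, and how the authors processed the images, corrected background and normalized is not given in the sources used. The values were read as Cy5 over Cy3, converted to log2 and turned to rat over pool by the channel labels. Exact zeros (10.924% of values) were taken as missing and 500 features absent on 91 arrays were left out. Both arrays of a rat were averaged and probes of a gene (symbol from the platform annotation) averaged; 12750 probes had 1 symbol, 5 several and 8820 none. Features needed values in 4 of 6 rats of every group. limma 3.58.1 (R 4.3.3) fitted 12 group means over 72 rats. Rats were matched to the deposited dose key by number, ignoring zeros at the ends, and 72 of 72 times matched.

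Named genes were the 15 largest rises and falls past the threshold, up to 5 members past it per list (otherwise the 2 farthest from 0), and the 3 largest and lowest for each difference between times. Among the named genes with several probes, 0 had probes that disagreed in sign at 24 h. The other genes with several probes were not searched for this. Other genes named in the text were chosen after their values were seen. Members, lists and rules were chosen with earlier results of these data known. Arrays carry no counts, so the number of rats and arrays limits the precision. Alternatives covered the dye, zeros, missing rats, scaling, array weights, array design, probe level, the rats in the fit and each rat left out.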

Additional observations from a re-analysis of the deposited data

Results flagged for a closer look

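Single rats stood apart from the other 5 at 1500 mg/kg in 5 of 98 groups of 6 rats examined by Dixon's test, and chance alone marks about 1 in 20 groups. Rat 0861 was high for Cd63, at a log2 ratio of 0.89. Rat 3046 was low for Glrx (-0.26), Lgals3 (-0.13), Mgst1 (0.016) and Tpd52 (0.22).

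The effect of 1500 against 150 mg/kg at 24 h differed from that at 3 h, by the interaction term in limma at adjusted p under 0.05, for 32 of the genes named in the text, most of them chosen by their 24 h difference, which is a term of this one. In all, 113 genes with a symbol passed, and 10 for 24 h minus 6 h. Among the 32, gaps of 24 h minus 3 h above 2 were those of Serpinb1a (3.004), S100a9 (2.71), Anxa1 (2.17), C5ar1 (2.10) and Prdx5 (2.08). Gaps between 1.3 and 1.9 were found for Tf (1.90), Mmp8 (1.88), Gng10 (1.74), Fcgr2b (1.61), Cfd (1.60), Slpi (1.57), Il1b (1.46), Tpd52 (1.39), Tlr2 (1.36) and Fcgr1a (1.32). Smaller gaps above 0 were those of Ceacam4 (1.24), Pglyrp1 (1.18), Bcl3 (1.15), Mgst1 (1.12), Glrx (1.11), Ccng1 (1.03), Lgals3 (0.94), Tyrobp (0.77), Ifitm1 (0.73) and Cd63 (0.49). Gaps below 0 were those of Cd36 (-1.05), Ranbp10 (-0.996), Kpna1 (-0.99), Cmas (-0.97), Usp15 (-0.76), Ctsb (-0.68) and Ell2 (-0.58).

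For 24 h minus 6 h the interaction passed for 6 of the genes counted in the same way, with gaps of 1.60 for Bcl2a1, 1.21 for Tpd52, 1.10 for Fcgr1a, 1.03 for Glrx, 0.80 for Lgals3 and 0.76 for Bcl3. The causes of these differences were not tested.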

How the results depend on the processing

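The count of 152 features for 1500 against 150 mg/kg stayed within 1.5 times under centring (150), scaling (151), zeros kept (143), stricter or looser needs for values (144 to 148), array weights (130), array design as a covariate (156), 1 array design only (140), probes in place of genes (154), a robust variance trend (150), the rats' Cy3 arrays alone (116) and omission of the rats whose arrays correlated below 0 (173, chosen after seeing the data). It was 101 with the rats' Cy5 arrays alone, 28 with only the 24 h rats, of which 27 were among the 152, 0 with only the 12 rats (1135 at an unadjusted limma p under 0.05), 84 with a change of at least 1.5-fold, 280 against the 0 and 150 mg/kg rats together, 312 with single arrays and the rat as a random block, and 22 without rats 0861 and 8385. Leaving out 1 rat gave 74 to 209. For 24 h minus 3 h, leaving out 1 rat gave 95 to 221. For 24 h minus 6 h the 13 became 7 with zeros kept and 47 with array weights, and 0 to 50 with 1 rat left out. For 1500 against 0 mg/kg array weights gave 90 in place of 178. The causes of these changes were not tested. Of 30 list medians, which have no test, 20 changed sign with a rat or rats 0861 and 8385 left out, 14 of them without both rats, such as the translation factors (0.038 in place of -0.19). The 49 named genes past the threshold kept their sign in all settings run, and 12 kept their call with only the 24 h rats. In that fit fewer samples estimate the spread, and the standard errors also moved, in both directions. With only the 24 h rats they were 0.61 for Serpinb1a and 0.61 for S100a9, against 0.42 and 0.42 in the fit of all rats. For Cat and Tpd52 they were 0.16 and 0.16, against 0.20 and 0.18. Which of these cost the other genes their call was not tested. No paired analysis was possible because the rat numbers differ between the groups and pair no samples. Depth is not defined for ratios, and the values used carry no signal over background.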
